A study of Mus musculus with 16 samples.

Results

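The genes described here are 6 that encode ligands of the epidermal growth factor receptor (EGFR), Areg (amphiregulin), Ereg (epiregulin), Hbegf (heparin-binding EGF-like growth factor), Tgfa (transforming growth factor alpha), Btc (betacellulin) and Epgn (epigen), the 3 receptor genes Egfr, Erbb2 and Erbb3, and Errfi1, which encodes an inhibitor of EGFR. Egf itself is given further on, with the other ErbB ligands. The 10 genes are among 50600 in the count table, and were taken by name through their Ensembl identifiers. They were chosen with earlier results of these data known, and the paper that reported the data already gave Areg and Tgfa as raised by papain. All 10 passed the minimum of 10 counts over all libraries and were tested. The ligands are made as proteins anchored in the cell membrane and are released by proteases of the ADAM family. Released ligand binds EGFR, which pairs with a second receptor of the ErbB family and signals through the RAS-ERK and PI3K-AKT relays. In the epidermis this system is known to act in keratinocyte growth, differentiation and wound closure, and keratinocytes themselves make several of the ligands.

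Expression was measured by RNA-seq in epidermal cells of the footpad of 16 female C57/B6J mice, with 1 library for each mouse and 4 mice in each of 4 groups. Mice were fed from 5 wk of age, for 3 wk, either a purified diet poor in ligands of the aryl hydrocarbon receptor (AhR-poor diet, SYNTH in the labels) or that diet supplemented with 200 ppm indole-3-carbinol (I3C diet), a plant compound that is turned into AhR ligands. The footpad then received 50 μl of PBS (vehicle) or the same volume with 50 μg of papain, a cysteine protease used as a model allergen, and dispase-separated epidermis was processed 6 hr later, with dead cells removed. Cages were split by diet, so that an effect of the cage cannot be told apart from one of the diet, and the sequencing unit of each library is not given in the sources used here.

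Library totals ran from 22500821 to 51844375 counts, and values are given as CPM, counts per 1000000 counts of the library after scaling with the TMM factors of edgeR. A count of 3, taken as the floor of detection, was worth 0.0569 to 0.130 CPM, a limit that covers counting error alone. The keratinocyte identity of the cells was plain in every group, since the 5 basal keratinocyte markers summed to between 20110 and 35450 CPM and the 6 suprabasal markers to between 16790 and 39640 CPM. Markers of other cells were present at levels that moved with the groups. The summed CPM of 6 fibroblast markers lay between 2.14 and 13.3 in the I3C libraries, between 93.2 and 166 in the AhR-poor vehicle libraries and between 246 and 607 in the AhR-poor papain libraries. The summed CPM of 6 neutrophil markers was at most 4.34 in any vehicle library, with Ly6g listed at 0 in all of them. It was 44.5 to 74.1 with papain on the I3C diet, where Ly6g was again at 0 in every library, and 68.9 to 443 with papain on the AhR-poor diet. In such bulk samples fewer cells of a type and less RNA per cell cannot be told apart.

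Of the 6 ligand genes, 4 lie side by side on chromosome 5 of GRCm38. Epgn (91027464 to 91035215), Ereg (91074622 to 91093646) and Areg (91139599 to 91148432) are on the forward strand and Btc (91357261 to 91402994) is on the reverse strand, with 0 other protein-coding genes between them. Tgfa is on chromosome 6 (86195223 to 86275719) and Errfi1 on chromosome 4 (150853919 to 150868892), both on the forward strand. Egfr (16752203 to 16918158) and Erbb2 (98412470 to 98437716) are both on the forward strand of chromosome 11, and Erbb3 is on the reverse strand of chromosome 10 (128567523 to 128589652). Genes of the opposite strand overlap 141 exonic bases of Ereg, 118 of Tgfa and 9 of Erbb2, and the strand setting of the counting is not given in the sources used here, so a small part of these counts is uncertain.

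The 4 ligand genes called with papain, defined by log2 fold changes above 1 at adjusted p-values below 0.01 on either diet, were Areg, Epgn, Tgfa and Btc. Their proximal promoters are printed because these are the ligand genes that rose. Each line gives the 250 bases before the start of the gene, read 5′ to 3′ on the strand of the gene, from the RefSeq windows of build GRCm38.p6, whose start for Epgn lies inside the GENCODE gene. The positions are chr5:91139349-91139598 for Areg, chr5:91027267-91027516 for Epgn, chr6:86194972-86195221 for Tgfa and chr5:91402995-91403244 for Btc, the last on the reverse strand. Capitals mark matches to a core of the AhR response element (GCGTG), the AP-1 motif (TGANTCA) and the cAMP response element (TGACGTCA), searched on both strands, and no match overlapped another.
Areg: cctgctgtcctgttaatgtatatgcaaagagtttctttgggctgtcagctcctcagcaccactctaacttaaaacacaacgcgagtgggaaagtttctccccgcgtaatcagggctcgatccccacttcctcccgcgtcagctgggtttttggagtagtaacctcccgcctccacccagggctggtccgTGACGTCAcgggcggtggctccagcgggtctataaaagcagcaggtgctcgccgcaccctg
Epgn: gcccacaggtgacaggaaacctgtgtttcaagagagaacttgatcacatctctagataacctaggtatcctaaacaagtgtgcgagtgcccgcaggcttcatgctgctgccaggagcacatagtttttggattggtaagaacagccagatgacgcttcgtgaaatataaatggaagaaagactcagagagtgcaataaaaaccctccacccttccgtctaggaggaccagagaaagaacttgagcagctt
Tgfa: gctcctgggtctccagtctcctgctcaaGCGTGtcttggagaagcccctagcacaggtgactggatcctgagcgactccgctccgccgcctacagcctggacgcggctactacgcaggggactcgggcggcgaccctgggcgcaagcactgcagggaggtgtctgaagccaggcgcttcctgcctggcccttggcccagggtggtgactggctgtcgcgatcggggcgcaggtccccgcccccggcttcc
Btc: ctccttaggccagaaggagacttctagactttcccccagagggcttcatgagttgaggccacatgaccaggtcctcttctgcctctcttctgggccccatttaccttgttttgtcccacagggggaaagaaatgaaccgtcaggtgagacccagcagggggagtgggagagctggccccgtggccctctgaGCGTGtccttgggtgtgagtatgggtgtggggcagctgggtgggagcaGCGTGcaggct
The Areg window held 1 full cAMP response element, whose first base is 61 bases before the start. Tgfa held 1 AhR core and Btc 2. The window of Epgn held 0 matches to the 3 motifs. Of all 32851 mouse promoter windows of the same length, 28.2% held the AhR core, 6.75% the AP-1 motif and 1.55% the cAMP response element. Windows were found for 7 of the 10 genes, and among those not printed, the windows of Egfr and Erbb2 had 0 matches and Errfi1 had 1 cAMP response element and 2 AhR cores in the second of its starts. A match is a stretch of letters, and binding was not measured.

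Between-gene levels were compared as CPM per kilobase of exon (CPM per kb). With vehicle, the highest level among the 10 genes was that of the inhibitor gene Errfi1, with a mean of 73.9 ± 39.5 CPM per kb (SD, n = 4) on the I3C diet and 48.2 ± 9.41 on the AhR-poor diet. Hbegf was the highest ligand gene, with 48.5 ± 17.3 and 38.9 ± 10.5 CPM per kb on the I3C and AhR-poor diets. The ranges of Errfi1, Hbegf and Erbb2 overlapped on both diets, so the order of these 3 was not resolved. By the means Erbb3 followed, with 35.3 ± 4.22 and 31.6 ± 4.86 CPM per kb, and then Epgn, Egfr and Areg. The range of Erbb3 overlapped that of Hbegf on both diets and that of Epgn on the I3C diet. The range of Egfr overlapped that of Areg on the I3C diet and that of Epgn on the AhR-poor diet. Egfr itself stood at 11.6 ± 1.36 and 11.5 ± 1.20 CPM per kb, below both of the other receptor genes in every vehicle library. Tgfa and Ereg came next, with overlapping ranges and means between 1.82 and 4.49 CPM per kb, and Btc was last, with means of 0.0708 and 0.0621 CPM per kb that rest on 5 to 20 counts a library. With papain, Epgn had the highest mean of the 10 genes on both diets, 62.9 ± 16.9 CPM per kb on the I3C diet and 55.3 ± 8.39 on the AhR-poor diet, although its range overlapped that of Errfi1. The place of Hbegf depends on the length used, since its exons span 4834 bases in all and 2890 in its longest transcript, and by the latter its level with papain was 63.2 and 63.0 CPM per kb on the I3C and AhR-poor diets. By the longest transcript Epgn stood at 64.6 and 56.8 CPM per kb with papain, and Errfi1 at 60.4 and 63.7. Epgn then had the highest mean on the I3C diet, but lay below Errfi1 and Hbegf on the AhR-poor diet.

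Papain raised a subset of the ligand genes on both diets. On the AhR-poor diet 4 of the 10 genes were called higher, against 6.04% of the 22155 genes tested, and the same 4 were those that rose at any fold, against 12.4%. On the I3C diet 3 were called higher, against 3.69% of genes, and 4 rose at any fold, against 12.7%. None of the 10 fell by edgeR on either diet, where 10.1% of genes fell on the AhR-poor and 12.9% on the I3C diet. At an unadjusted p below 0.05, 1 (Erbb2) was lower on the AhR-poor and 0 on the I3C diet. The median log2 fold change of the 10 was 0.35 on the AhR-poor diet and 0.50 on the I3C diet, beside -0.0044 and -0.0364 over all genes tested. These 2 comparisons share no library.

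Areg, whose product also binds heparan sulfate and is made by epithelial and immune cells, stood at 11.2, 10.8, 10.8 and 10.9 CPM in the AhR-poor vehicle libraries T100, T101, T102 and T103. With papain on that diet it was at 30.6, 29.2, 33.2 and 21.6 CPM in T104, T105, T107 and T112. On the I3C diet it was at 16.5, 9.18, 8.33 and 9.67 CPM in the vehicle libraries T108, T109, T110 and T111, and at 21.6, 35.4, 25.0 and 23.5 CPM in the papain libraries T106, T113, T114 and T115. On each diet all papain libraries lay above all vehicle libraries (exact permutation p = 0.0286, two-sided, the smallest that 4 against 4 can give). The log2 fold change was 1.39 on the AhR-poor diet (SE 0.20, edgeR adjusted p = 5.19e-05) and 1.27 on the I3C diet (SE 0.20, adjusted p = 9.14e-05). The 4 AhR-poor vehicle libraries agreed closely, with a coefficient of variation of 1.77%, against 34.6% for those of the I3C diet, where T108 was the high library.

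Tgfa, the classical keratinocyte ligand of EGFR, had the largest rise of the 6 ligand genes on the I3C diet. Its vehicle libraries on that diet were at 23.0, 11.4, 12.1 and 10.3 CPM, in the order of libraries given for Areg, and its papain libraries at 40.3, 80.3, 61.7 and 54.9 CPM. It went on the AhR-poor diet from 11.8, 13.5, 10.3 and 11.6 CPM to 49.3, 30.9, 43.0 and 35.6 CPM. The groups did not overlap on either diet, with log2 fold changes of 2.06 on the I3C diet (SE 0.26, adjusted p = 1.84e-05) and 1.75 on the AhR-poor diet (SE 0.26, adjusted p = 1.07e-04). Areg and Tgfa kept an adjusted p below 0.01 on both diets in all 16 fits that left out a library.

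Epgn, a ligand that binds EGFR with low affinity, rose from the highest starting level of these 3 genes. The AhR-poor vehicle libraries were at 31.6, 18.1, 30.2 and 33.3 CPM and the papain libraries at 109.3, 88.3, 116 and 85.9 CPM, a log2 fold change of 1.82 (SE 0.36, adjusted p = 0.00157). On the I3C diet the vehicle libraries were at 78.2, 26.9, 24.9 and 25.3 CPM and the papain libraries at 79.1, 153, 110.3 and 111.9 CPM, a log2 fold change of 1.55 (SE 0.36, adjusted p = 0.00391). The I3C groups did not overlap, but vehicle library T108 nearly reached papain library T106. Without T108 the I3C value was 2.14 (adjusted p = 6.54e-06). The call on that diet was lost without T109, T110, T111 or T113, at an adjusted p of up to 0.0139, and when the fit held just the 8 libraries being compared, at 0.0137.

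Neutrophil markers moved with these rises on both diets, and fibroblast markers on the AhR-poor diet alone. The neutrophil markers rose with papain in 6 of 6 genes on the AhR-poor and 3 of 6 on the I3C diet. Those 3 were S100a8, S100a9 and Cxcr2. Ly6g stayed at 0 on the I3C diet, and Retnlg and Mmp8 did not pass there (edgeR adjusted p = 0.233 and 0.153). Their means with papain were 0.089 and 0.108 CPM. The fibroblast markers rose in 6 of 6 on the AhR-poor diet and 0 of 6 on the I3C diet, where 1 fell. With the mean log2 CPM of the neutrophil markers as a covariate, which follows the injection, the log2 fold changes of Areg, Tgfa and Epgn were 0.58, 1.79 and 2.0 for the AhR-poor diet (SE 0.59, 0.80 and 1.15) and 0.78, 2.09 and 1.66 on the I3C diet (SE 0.39, 0.54 and 0.77), and none of them passed. With the fibroblast covariate, the AhR-poor rise of Tgfa passed and those of Areg (1.29, adjusted p = 0.0153) and Epgn (2.06, adjusted p = 0.0359) did not. The part of these cells in the rises was not tested.

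Btc was the rarest of the 10 and rose on the AhR-poor diet. Its counts there were 5, 11, 14 and 13 with vehicle, or 0.136, 0.291, 0.346 and 0.349 CPM, and 41, 37, 15 and 22 with papain, or 1.01, 0.702, 0.649 and 0.598 CPM, so that the groups did not overlap. The log2 fold change was 1.39 (SE 0.35, adjusted p = 0.00485). On the I3C diet its counts ran from 8 to 20 with vehicle and from 6 to 20 with papain, and the log2 fold change was 0.11, with a 95% interval from -0.67 to 0.89. The call on the AhR-poor diet was lost without T100, T101 or T104, at an adjusted p of up to 0.0228. Fibroblast, neutrophil and monocyte and macrophage markers rose in the same comparison (6 of 6, 6 of 6 and 4 of 6), and their part in the rise of Btc was not tested. With the fibroblast covariate the log2 fold change was 1.31 (adjusted p = 0.151) and with the neutrophil covariate 0.99 (adjusted p = 0.826), so the call was lost with both.

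Hbegf and Ereg did not pass in either papain comparison, and the intervals differ in width. Hbegf, the ligand that also serves as the diphtheria toxin receptor in primates, had medians of 196 and 182 CPM with vehicle and papain on the I3C diet and of 186 and 181 CPM on the AhR-poor diet. Its log2 fold change was -0.36 on the I3C diet (95% interval -0.82 to 0.09), or -0.08 without T108, which held 359 CPM against 186 to 203 in the other vehicle libraries. The AhR-poor value was -0.05 (95% interval -0.50 to 0.41). Ereg, a ligand of EGFR and ErbB4, had the highest coefficient of variation of the 10 genes in 3 of the 4 groups, the exception being the I3C vehicle group. Its CPM ran from 4.02 to 12.9 with vehicle and from 8.05 to 25.4 with papain on the I3C diet, and from 8.50 to 28.2 and from 13.9 to 31.7 on the AhR-poor diet. The log2 fold changes of Ereg, 0.75 and 0.51 on the I3C and AhR-poor diets, had intervals from -0.28 to 1.78 and from -0.48 to 1.51, which hold both no change and rises as large as those of Areg.

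**Figure D1:**
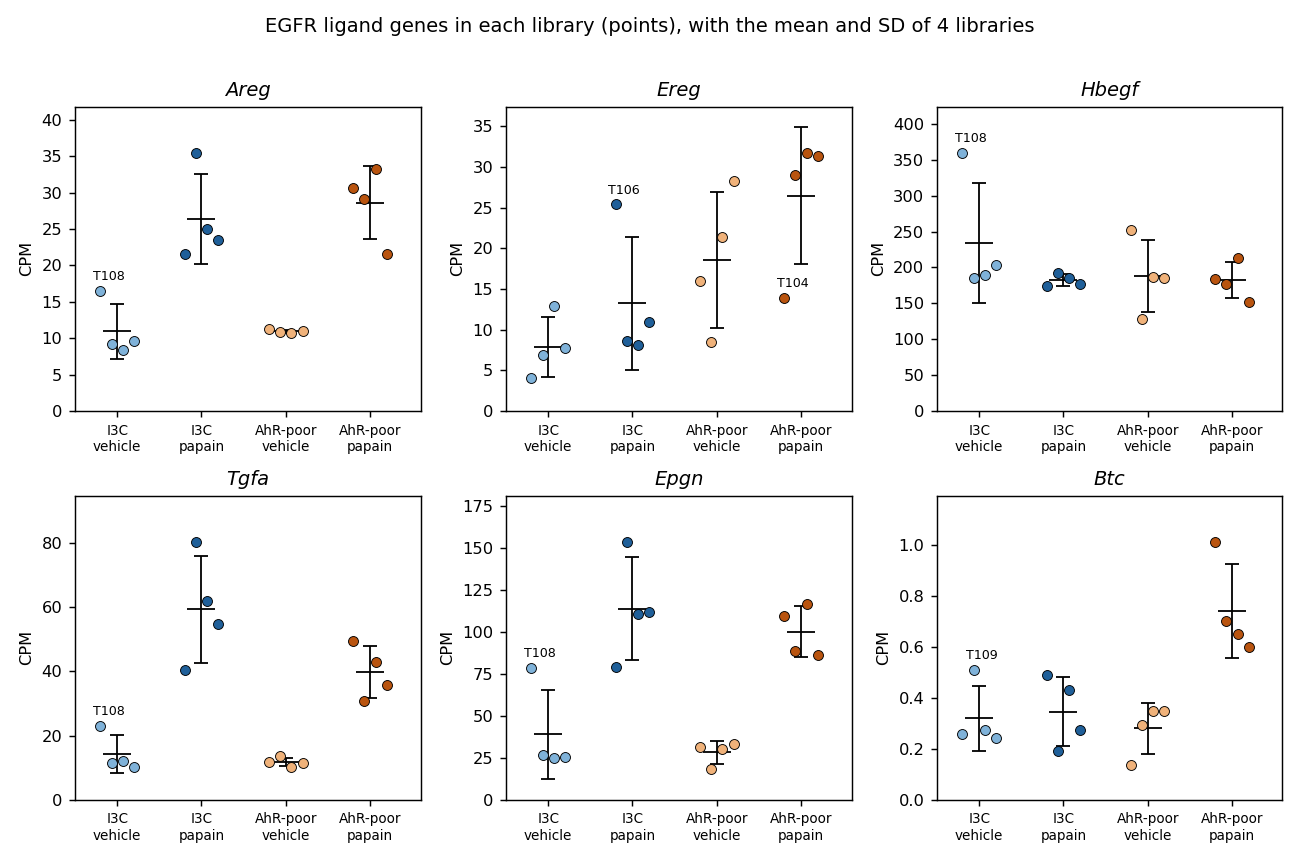
CPM (linear axis from 0) of the 6 ligand genes in each of 16 libraries, 1 point each, by group, with the mean as a bar and the SD of 4 libraries as whiskers. Papain libraries lie above vehicle libraries for Areg, Tgfa and Epgn on both diets and for Btc on the AhR-poor diet, and the named libraries are those that stand far from the other 3 of their group, such as T108 at 359 CPM for Hbegf.

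The make-up of the summed ligand message differed between vehicle and papain libraries. The sum of the 6 genes was 83.1 ± 35.1 CPM per kb with vehicle and 135 ± 24.3 with papain on the I3C diet (SD, n = 4), where the ranges overlapped because T108 stood at 136. The sums on the AhR-poor diet were 70.0 ± 14.7 and 129 ± 17.4 CPM per kb, with no overlap. Hbegf made up 54.7 to 62.2% of the sum in I3C vehicle libraries and 23.7 to 32.8% in I3C papain libraries. On the AhR-poor diet the share of Hbegf was 51.4 to 61.7% with vehicle and 28.3 to 30.2% with papain. Epgn made up 20.8 to 31.9% and 39.8 to 50.4% of the sum with vehicle and papain on the I3C diet, and 20.2 to 24.8% and 40.2 to 44.8% on the AhR-poor diet. The share of Epgn in T108 was the highest of the vehicle libraries and still lay below every papain library. Areg held mean shares between 11.0 and 18.2% and Tgfa between 2.64 and 6.69%, and Btc held at most 0.175% in any library. By the length of the longest transcript, Hbegf lay above Epgn in 6 of the 8 papain libraries, and Epgn above Hbegf in T113 and T115. These shares are given without a test.

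**Figure D2:**
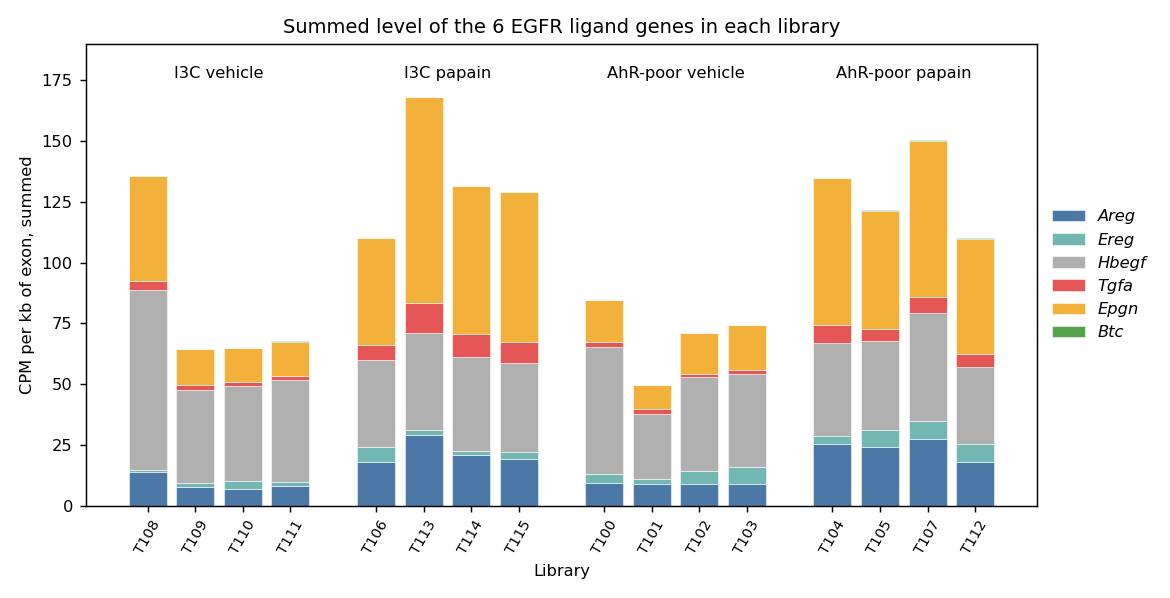
Level of the 6 ligand genes in each library, in CPM per kb of exon and stacked, with libraries ordered by group. The grey Hbegf part is the largest in every vehicle library and the yellow Epgn part is the largest in every papain library when all exons are counted (in 2 of 8 by the longest transcript, where Hbegf exceeds it in the rest). T108 is the vehicle library with the highest stack, at 136 CPM per kb.

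Among the receptor genes, Egfr rose with papain on the I3C diet. It was at 147, 130.2, 139 and 110.6 CPM in the I3C vehicle libraries and at 181, 231, 231 and 236 CPM in the I3C papain libraries. The groups did not overlap, T106 being the lowest papain library, and the log2 fold change was 0.74 (SE 0.10, adjusted p = 7.57e-06), below the minimum of 1 for a call. On the AhR-poor diet Egfr was at 118, 130.2, 123 and 149 CPM with vehicle and at 145, 142, 155 and 152 CPM with papain, which overlap, and the log2 fold change was 0.19 (95% interval -0.02 to 0.39, adjusted p = 0.153). The rise on the I3C diet passed in all 16 fits that left out a library, with log2 fold changes from 0.67 to 0.82.

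Erbb2, a receptor without a known ligand of its own that pairs with the others, varied little between groups, with medians of 239.7, 262, 249.5 and 216 CPM in the I3C vehicle, I3C papain, AhR-poor vehicle and AhR-poor papain groups. Its log2 fold change with papain was 0.07 on the I3C diet (95% interval -0.15 to 0.29) and -0.25 on the AhR-poor diet (95% interval -0.47 to -0.03, adjusted p = 0.0808). Erbb3, a receptor of neuregulins with little kinase activity, was at 249.6, 206, 198 and 195 CPM with vehicle and 232, 247, 263 and 269 CPM with papain on the I3C diet. The AhR-poor libraries were at 175, 194, 163 and 229.5 CPM with vehicle and 159, 167, 188 and 187 CPM with papain. Neither response of Erbb3 passed, with log2 fold changes of 0.25 (adjusted p = 0.0627) and -0.12 (adjusted p = 0.421). Errfi1, an immediate early gene product that binds the EGFR kinase domain, was at 474, 220.0, 159.8 and 205 CPM in the I3C vehicle libraries and at 166 to 203 CPM in the I3C papain libraries. Its log2 fold change there was -0.53 (95% interval -1.09 to 0.04), or -0.08 without T108, and on the AhR-poor diet it was 0.17 (95% interval -0.40 to 0.74).

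**Figure D3:**
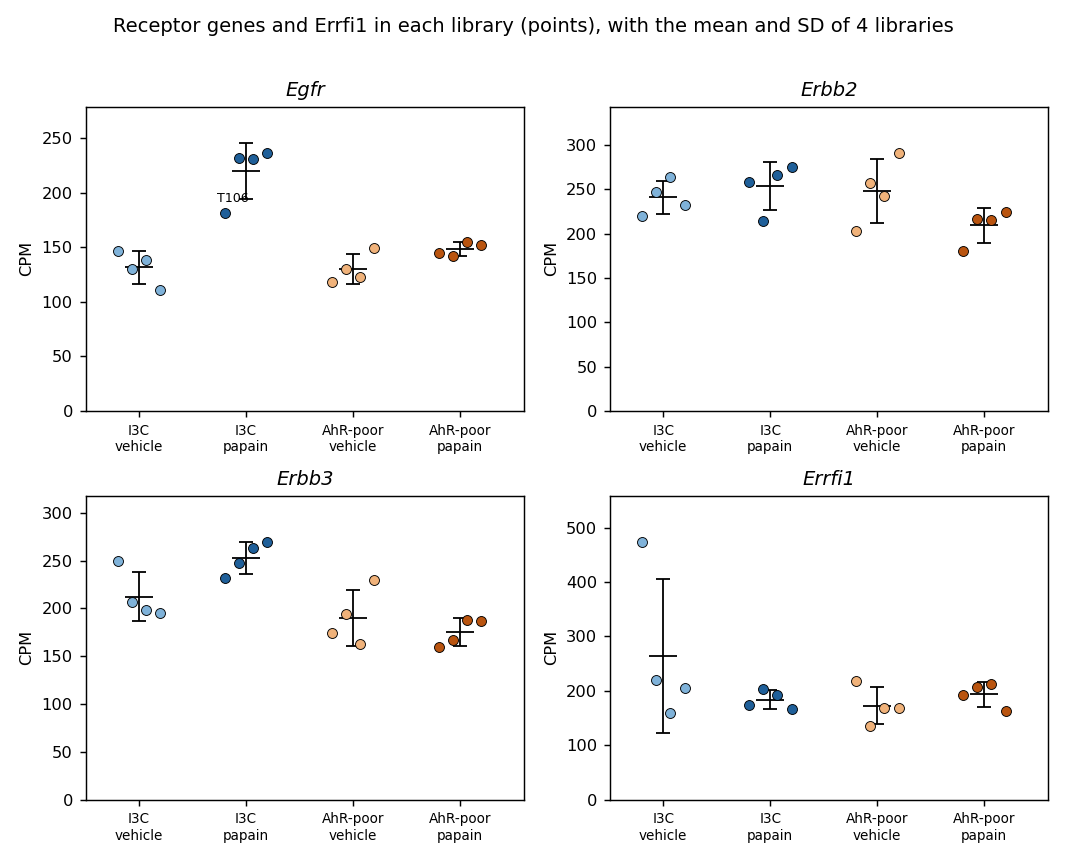
CPM (linear axis from 0) of Egfr, Erbb2, Erbb3 and Errfi1 in each library, 1 point each, by group, with the mean as a bar and the SD of 4 libraries as whiskers. For Egfr and Erbb3 the I3C papain libraries lie above the AhR-poor papain libraries with no overlap, and T106 is the lowest I3C papain library for Egfr, at 181 CPM.

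The diets were compared within each injection, to ask whether dietary AhR ligands altered these genes. With vehicle, none of the 10 genes differed at an adjusted p below 0.01 by edgeR, where 1.72% of all genes did, and 2 (Ereg and Errfi1) had an unadjusted p below 0.05. Ereg had the widest interval, at 1.23 on the log2 scale for the AhR-poor relative to the I3C diet (95% interval 0.20 to 2.26, adjusted p = 0.274). Errfi1 was at -0.62 (95% interval -1.19 to -0.05, adjusted p = 0.343), and at -0.18 without T108. The other 8 log2 fold changes lay between -0.46 for Epgn and 0.04 for Erbb2. Without T108 those of Epgn and Tgfa went from -0.46 and -0.26 to 0.14 and 0.07, and those of Areg and Egfr were so near 0 that their sign changed with the scaling of the libraries. With papain, none of the 10 was called, against 7.24% of all genes, and none rose at any fold, against 8.13% (1, Btc, did at an unadjusted p below 0.05), while 2 fell, against 3.07%.

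Those 2 were Egfr and Erbb3, both lower on the AhR-poor diet with papain. Egfr had a mean of 148 ± 6.15 CPM on the AhR-poor and 219.9 ± 25.9 CPM on the I3C diet (SD, n = 4), a log2 fold change of -0.57 (SE 0.10, adjusted p = 3.52e-04). Erbb3 was at 175 ± 14.3 and 253 ± 16.6 CPM, a log2 fold change of -0.53 (SE 0.10, adjusted p = 0.00108). In both genes every AhR-poor papain library lay below every I3C papain library (exact permutation p = 0.0286), and both differences passed in all 16 fits that left out a library. Erbb2 had a log2 fold change of -0.28 (95% interval -0.50 to -0.06, adjusted p = 0.0706). In the same libraries the fibroblast markers were higher with the AhR-poor diet (6 of 6, summed CPM 246 to 607 against 2.14 to 11.4), as were endothelial (5 of 5) and monocyte and macrophage markers (6 of 6), and 2 of the 5 basal keratinocyte markers were lower. Of the 5 markers of Schwann cells, a cell type in which Erbb3 is prominent, 1 was higher (Sox10, adjusted p = 0.00293) and 1 lower (Mbp, adjusted p = 0.00461) on the AhR-poor diet. Their summed CPM was 60.2 to 64.1 on that diet and 71.0 to 93.8 on the I3C diet. That sum was nearly all Mbp, with means of 60.3 and 80.6 CPM, so its order is that of 1 gene. The median log2 fold change of the 5 markers was 1.06, the other direction from Erbb3. Sox10 and Cdh19 were at or under the floor in every I3C library. With the mean log2 CPM of the fibroblast markers as a covariate, the log2 fold changes became 0.20 for Egfr (SE 0.36) and 0.03 for Erbb3 (SE 0.39), in a fit where the covariate moves with the diet and the errors widen, and with the neutrophil markers they were -0.33 (SE 0.23) and -0.24 (SE 0.23). The part of these cells in the 2 differences was not tested.

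Btc, Tgfa and Ereg had diet differences with papain that did not pass. For Btc all 4 AhR-poor libraries lay above the I3C libraries, with a log2 fold change of 1.09 (95% interval 0.36 to 1.81, adjusted p = 0.0321). For Tgfa the log2 fold change was -0.58 (95% interval -1.11 to -0.05, adjusted p = 0.119), with overlapping libraries. The libraries of Ereg overlapped too, at 0.99 (95% interval -0.01 to 2.0, adjusted p = 0.16). Areg, Hbegf, Epgn and Errfi1 had log2 fold changes between -0.19 and 0.12, and for Hbegf, at -0.0043, the sign changed with the scaling. Whether the papain response itself differed between diets was asked with the interaction of diet and papain, which none of the 10 passed by edgeR, where 0.0181% of all genes did. The interaction was nearest to passing for Egfr, at -0.55 on the log2 scale (95% interval -0.84 to -0.26, unadjusted p = 7.85e-04, adjusted p = 0.0865), followed by Erbb3 (-0.37, unadjusted p = 0.0194), Btc (1.28, unadjusted p = 0.0229) and Erbb2 (-0.32, unadjusted p = 0.0449), and those were the 4 with an unadjusted p below 0.05. For Areg it was 0.12 (95% interval -0.48 to 0.71) and for Tgfa -0.31 (95% interval -1.08 to 0.45), both of which hold 0.

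**Figure D4:**
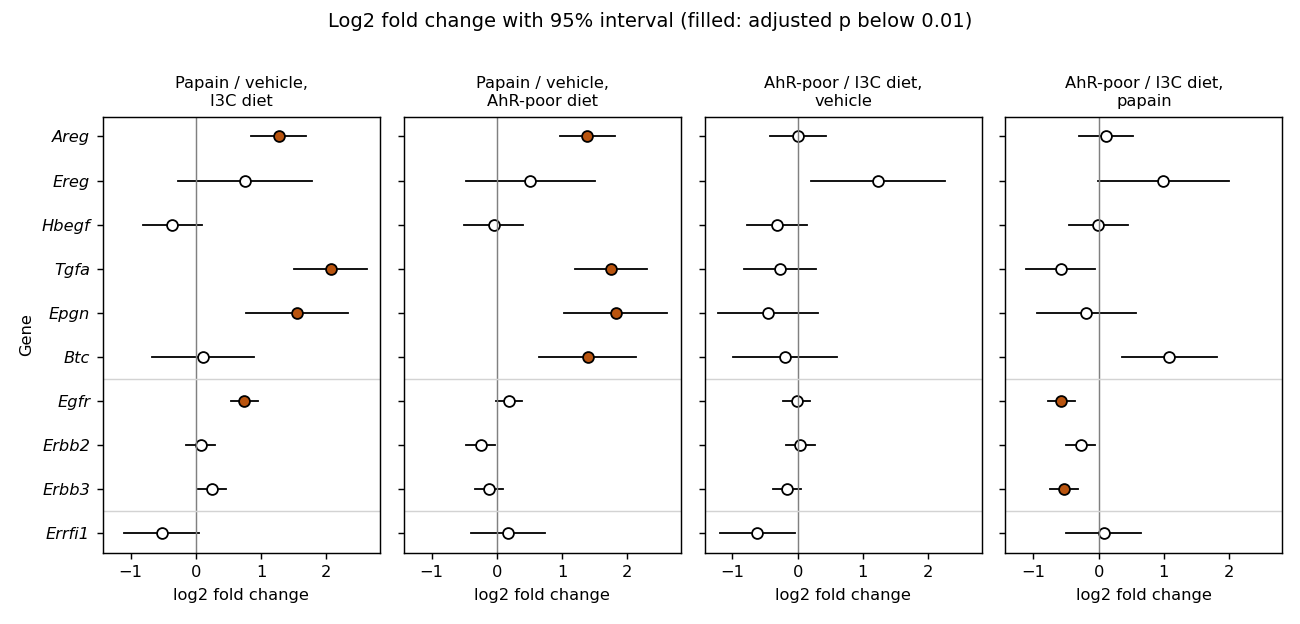
Log2 fold change (horizontal axis) with its 95% interval for the 10 genes in 4 comparisons, filled where the edgeR adjusted p is below 0.01. Filled points are 4 for papain on the I3C diet, 4 for papain on the AhR-poor diet, 0 for diet with vehicle and 2 for diet with papain, the latter being Egfr at -0.57 and Erbb3 at -0.53.

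Other ErbB ligands did not move in 1 direction. Of the list of Egf, the 4 neuregulin genes and Erbb4, Nrg3 and Erbb4 had 1 and 8 counts over all libraries and were not tested. Nrg1, a ligand of ErbB3 and ErbB4, rose with papain on both diets, from 5.91 ± 1.89 to 22.1 ± 6.64 CPM on the I3C diet and from 4.25 ± 1.17 to 19.0 ± 3.82 CPM on the AhR-poor diet (SD, n = 4). Its log2 fold changes were 1.90 (adjusted p = 3.68e-05) and 2.16 (adjusted p = 1.85e-05). Nrg2 fell with papain on both diets, with log2 fold changes of -1.69 and -1.09. Nrg4, a ligand of ErbB4, fell on the I3C diet (-1.66, adjusted p = 8.90e-05) and on the AhR-poor diet stood at -0.89 (adjusted p = 0.0105, and below 0.01 without T108, T106, T113 or T102). With papain, Nrg4 was higher on the AhR-poor diet, at 2.93 ± 0.224 against 0.978 ± 0.391 CPM, a log2 fold change of 1.57 (adjusted p = 4.21e-04). That difference was lost with the fibroblast covariate (0.33, SE 1.03), which moves with the diet, and with the neutrophil covariate (1.33, SE 0.56, adjusted p = 0.735). Egf, the prototype of the family, had a mean of 1.72 CPM over all libraries and log2 fold changes of -0.30 and -0.64 with papain on the I3C and AhR-poor diets (adjusted p = 0.255 and 0.0141). The AhR-poor difference of Egf passed by DESeq2 (adjusted p = 0.0063) and in edgeR fits with other filters of genes (0.00881 and 0.00694). Over the 4 genes tested, 1 rose and 2 fell on the I3C diet and 1 rose and 1 fell on the AhR-poor diet, with medians of -0.98 and -0.76. Of all genes tested, 12.7% rose and 12.9% fell on the I3C diet, and 12.4% rose and 10.1% fell on the AhR-poor diet.

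Of the 10 genes for the release of ligands, 3 rose with papain on each diet. Of all genes tested, 12.7% rose on the I3C and 12.4% on the AhR-poor diet. Adam17, which encodes the main sheddase of Areg, Tgfa and Hbegf, rose on both, from 91.3 ± 5.69 to 146 ± 10.3 CPM on the I3C diet (log2 fold change 0.68, adjusted p = 9.48e-07) and from 92.1 ± 5.96 to 116 ± 8.34 CPM on the AhR-poor diet (0.33, adjusted p = 0.00199). Adam10, whose product is the main sheddase of Egf and Btc, rose on the I3C diet (0.60) and so did Adam9 (0.39). On the AhR-poor diet Adam10 stood at 0.23 (edgeR adjusted p = 0.0341, and 0.00698 by DESeq2). With papain, Adam10 (-0.38) and Adam17 (-0.34) were lower on the AhR-poor diet, the direction seen for Egfr and Erbb3. That of Adam10 was lost without T115 (adjusted p = 0.0104) and that of Adam17 without T114, T115 or T104 (up to 0.0182), and both were lost when scaled by library size only (0.0153 and 0.0232). Timp3, which encodes an inhibitor of Adam17, fell on the I3C diet from 128 ± 57.4 to 53.2 ± 2.13 CPM (log2 fold change -1.27, adjusted p = 3.34e-04). On the AhR-poor diet it was at 115.2 ± 20.2 CPM with vehicle and 74.5 ± 2.28 CPM with papain, with no overlap, and did not pass (-0.63, adjusted p = 0.037), but did so without T108 (2.40e-04) and in a fit of just the 8 libraries compared (4.98e-04). Adam12 and Adam19, which are expressed in mesenchymal cells, rose with papain on the AhR-poor diet (3.93 and 1.28) and were higher on that diet with papain (4.06 and 2.65), in the libraries where the fibroblast markers were highest. The papain rise of Adam19 was lost without T102 or T105, at an adjusted p of up to 0.0135. With vehicle, Adam19 did not pass between the diets by edgeR (1.27, adjusted p = 0.0322), but did by DESeq2 (adjusted p = 0.00349). With the fibroblast covariate the diet differences of Adam10, Adam12, Adam17 and Adam19 with papain changed sign. Each turned value was smaller than its standard error, which ran from 0.28 for Adam17 to 2.30 for Adam12. The summed fibroblast markers did not overlap between the diets, so this fit cannot separate the diet from these cells. The part of fibroblasts in these differences was not tested. Adam15, Rhbdf1, Rhbdf2 and Frmd8, the last 3 of which encode partners of Adam17, did not pass by edgeR in any of the 4 comparisons, with log2 fold changes between -0.24 and 0.27. The diet difference of Frmd8 with papain passed by DESeq2 (adjusted p = 0.0078) and without T112 (0.00919), and the papain difference of Rhbdf1 on the I3C diet passed when scaled by library size only (0.00869) and without T111 (0.00591). The median of the 10 genes was 0.14 with papain on the I3C diet and 0.07 on the AhR-poor diet.

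**Figure D5:**
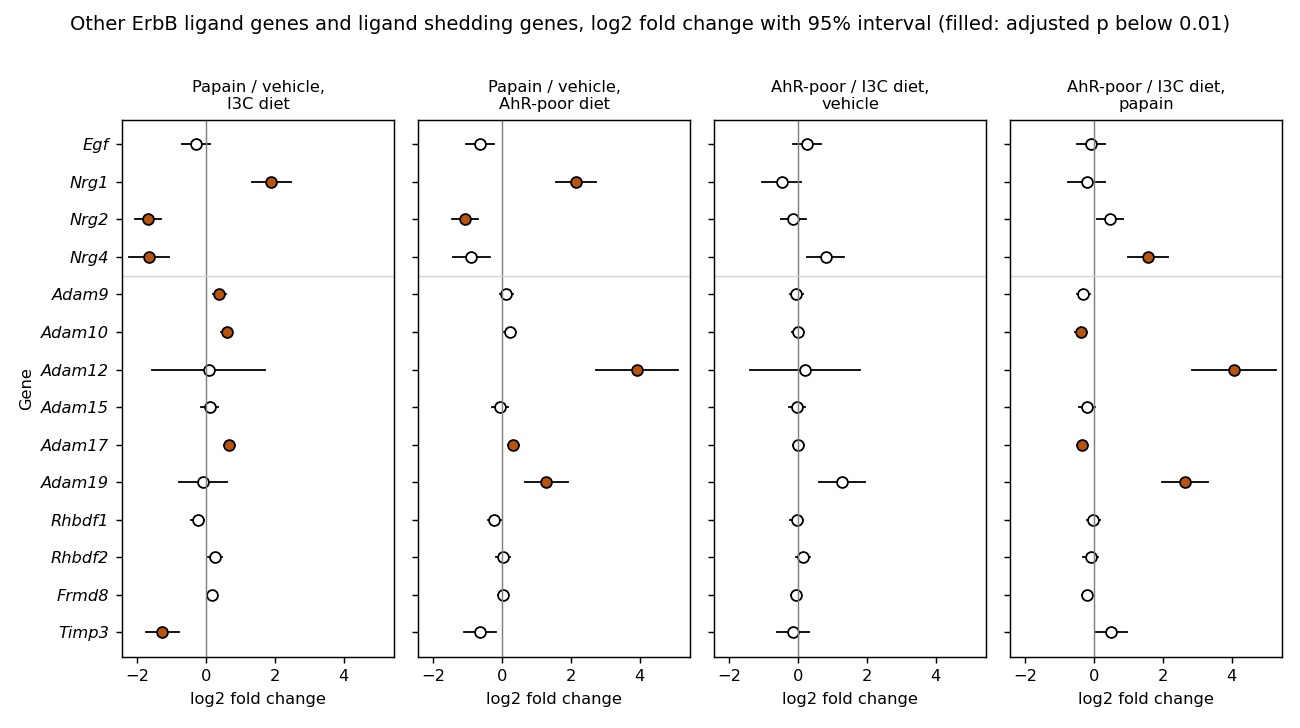
Log2 fold change (horizontal axis) with its 95% interval for the 4 other ErbB ligand genes tested and the 10 genes of ligand shedding, in 4 comparisons, filled where the edgeR adjusted p is below 0.01. Nrg1 and Adam17 are filled to the right of 0 and Nrg2 to the left in both papain comparisons, and Adam12 and Adam19 have their largest values, 4.06 and 2.65, between the diets with papain.

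Downstream of the receptors, changes went both ways. Among 25 genes of the signal relay, 7 rose and 6 fell with papain on the I3C diet, with a median of -0.01. On the AhR-poor diet 4 rose and 5 fell, with a median of -0.09. Of all genes tested, 12.7% rose and 12.9% fell on the I3C diet, and 12.4% rose and 10.1% fell on the AhR-poor diet. Map2k1, the MEK1 kinase gene, rose on both diets (1.0 and 0.86 on the I3C and AhR-poor diets). Pik3r2, a regulatory subunit of PI3K, fell (-0.85 and -0.80), and so did the RAS exchange factor gene Sos2 (-0.37, lost without T108 at an adjusted p of 0.0107, and -0.58), while Gab2, an adaptor gene, fell on the I3C diet (-1.23) and was higher on the AhR-poor diet with papain (1.54). Among 15 genes of receptor turnover and inhibition, 4 rose and 2 fell on the I3C diet. On the AhR-poor diet 3 rose and 2 fell, beside the same shares of all genes. Sh3kbp1 and Socs5, whose products take part in the endocytosis and degradation of EGFR, rose on both diets (1.22 and 0.76 for Sh3kbp1, 0.93 and 0.81 for Socs5). Lrig3 fell on both (-0.66 and -0.78), and its relative Lrig1, which encodes an inhibitor of EGFR, fell on the I3C diet (-0.87). On the AhR-poor diet Lrig1 stood at -0.51 (edgeR adjusted p = 0.0184, and 0.00959 by DESeq2).

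Of the 17 targets and feedback regulators of ERK, 1 rose and 4 fell on the I3C diet, where 12.7% and 12.9% of all genes did. On the AhR-poor diet none rose and 3 fell, beside 12.4% and 10.1% of all genes. The medians were -0.42 and -0.05, and 4 of the 17 had a log2 fold change above 0 on the I3C diet and 8 of the 17 on the AhR-poor diet. Dusp6, a phosphatase gene of ERK feedback, went on the AhR-poor diet from a mean of 83.3 CPM with vehicle to 154.6 CPM with papain, by 0.89 on the log2 scale (adjusted p = 0.0238). For Phlda1 these were 43.2 and 105.3 CPM and 1.28 (adjusted p = 0.0276). Both were named after their values were seen, and neither passed, although their groups did not overlap. The feedback inhibitors Spred2 (-1.30 and -0.95 on the I3C and AhR-poor diets) and Spry1 (-0.90 and -0.77) fell on both. Fos, an immediate early gene, fell from 5825 ± 1265 to 3235 ± 100.2 CPM on the I3C diet and from 4860 ± 815 to 3105 ± 208 CPM on the AhR-poor diet. Egr1 fell on the I3C diet (-0.94). On the AhR-poor diet Egr1 went from 2709 ± 643 to 1726 ± 195 CPM, with no overlap, and did not pass (-0.65, adjusted p = 0.0215). It passed there by DESeq2 (adjusted p = 0.00646), without T108 (5.48e-04) or T101 (0.00856), and in a fit of just the 8 libraries compared (0.0069). With vehicle, 0 genes of the 5 lists fell between the diets and 1 of the ERK list rose, and with papain the AhR-poor diet had higher and lower genes numbering 1 and 0 for the other ErbB ligands, 2 and 2 for shedding, 1 and 2 for the relay, 0 and 1 for turnover and 2 and 0 for the ERK list. None of the tested genes of these lists passed the interaction by edgeR. Of the list genes named here that passed with papain, 7 of 19 on the I3C diet and 0 of 14 on the AhR-poor diet kept their call with the neutrophil covariate, and 19 of 19 and 9 of 14 with the fibroblast covariate. Of the 6 named that passed between the diets with papain, 0 kept it with either, in fits where the covariates move with the groups.

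For Areg, Hbegf, Egfr and Errfi1, the genes with the most similar profile were sought by the root mean square difference of centred log2 CPM over the 16 libraries, among 13025 genes with a mean of at least 1 CPM. For Areg these were Pvr (0.16), Vegfa (0.20) and Vmp1 (0.21), beside a median difference of 0.78 over all genes compared. Pvr, a nectin-like adhesion receptor gene, was at 13.1 ± 3.88 and 29.7 ± 8.16 CPM with vehicle and papain on the I3C diet and at 14.1 ± 1.98 and 30.3 ± 5.90 CPM on the AhR-poor diet. For Hbegf they were Ccnl1 (0.08), Zbtb2 (0.08) and Sde2 (0.09), for Egfr Pcnx (0.08), Myo1e (0.08) and Slk (0.08), and for Errfi1 Usp2 (0.13), Rela (0.14) and Zbtb2 (0.15). Profiles that vary little are near many others, and the medians for Hbegf, Egfr and Errfi1 were 0.40, 0.41 and 0.46.

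The gene nearest to Ereg, named after its values were seen, was Cdsn (0.24), which encodes corneodesmosin, a protein of the outermost epidermal layers. Both genes were highest of their group in the same library in 4 of 4 groups. In I3C vehicle T110 Ereg was at 12.9 and Cdsn at 55.9 CPM, and in I3C papain T106 they were at 25.4 and 94.3 CPM. In AhR-poor vehicle T103 they were at 28.2 and 106.8 CPM, and in AhR-poor papain T107 at 31.7 and 133.6 CPM. Nccrp1 (0.36) and Orm1 (0.42) followed, beside a median difference of 0.95 over all genes compared. The 16 libraries share these group means and their composition, and the similarity is a description. Cdsn was picked for its nearness over these same libraries, so the shared highest libraries are no separate support.

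Library T108 stood apart within the I3C vehicle group for these genes. It was the highest of the 4 for 7 of the 10 genes and for 15 of the 17 ERK targets and feedback regulators, beside 30.3% of all 13026 genes with at least 1 CPM. Over all those genes T111 was the highest for 32.1% and lay farther from its group than T108 did, with median absolute log2 differences of 0.224 and 0.178. T108 held 7703 CPM of Fos against 5009 to 5438 in the other 3, 5721 of Egr1 against 2856 to 3036, and 686 of Fosl1 against 228 to 271. Its summed basal keratinocyte markers, at 35450 CPM, were the highest of the 16 libraries. On the AhR-poor diet T100 was the highest vehicle library for 13 of the 17 ERK genes, with 253 CPM of Hbegf and 218 of Errfi1, each the highest of its group. A high count among the 10 genes was not particular to T108. AhR-poor papain T107 was the highest of its group for 7 of them, beside 15.5% of all genes with at least 1 CPM. AhR-poor vehicle T103 was the highest for 6, beside 29.3%.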

How the data were processed

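The authors deposited, per the file headers, raw counts of reads on each gene for every library, without normalization. The submitters' processing notes name FastQC, STAR, DESeq2 and the mm10 build, and the counting tool and its strand setting are not given in the sources used here. Symbols, positions and exon lengths come from GENCODE M21 for GRCm38, the same assembly.

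Groups were taken from the labels. The 22155 genes whose counts summed to 10 or more were fitted together, with 1 mean per group, by edgeR 4.0.16 under R 4.3.3 (TMM factors, robust quasi-likelihood F test), and p-values were adjusted by the Benjamini-Hochberg method over all of them. A gene rose or fell at an adjusted p below 0.01, and was called where the log2 fold change also lay above 1 or below -1. Standard errors were derived from the F statistic, intervals are 95%, and libraries of 4 against 4 were compared by two-sided exact permutation tests of log2 CPM. The p-values treat each library as a separate mouse. The model was tested on simulated data.

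The 10 genes, the 5 pathway lists and the cell type markers were chosen with earlier results of these data known. Genes named are the 10, all genes of the first 2 lists, up to 3 of each other list with the largest change in each papain comparison among those past the threshold with at least 1 CPM, and the 3 nearest profiles of Areg, Hbegf, Egfr and Errfi1. Genes outside this rule are said to be so or given as marker values. Alternatives were RLE factors, library size only, other filters, DESeq2 1.42.0, only the 8 libraries compared, other thresholds, marker covariates and leaving out each library.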

Additional observations from a re-analysis of the deposited data

Results flagged for a closer look

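In 8 of the 40 sets of 4 libraries formed by a gene and a group, 1 library stood so far from the other 3 that Dixon's criterion marked it, a criterion that chance meets in about 1 of 20 sets. In 4 of these sets the library was I3C vehicle T108. It held 16.5 CPM of Areg against 8.33 to 9.67 in the other 3, 359 of Hbegf against 186 to 203, 23.0 of Tgfa against 10.3 to 12.1 and 78.2 of Epgn against 24.9 to 26.9. Errfi1 was also high there, at 474 CPM against 159.8 to 220.0, short of the criterion. I3C papain T106 was marked as high for Ereg, at 25.4 CPM against 8.05 to 10.9, and as low for Egfr, at 181 CPM against 231 to 236. The same library had 94.3 CPM of Cdsn against 31.8 to 36.9, and summed fibroblast markers of 11.4 CPM against 2.14 to 7.02. AhR-poor papain T104 was low for Ereg, at 13.9 CPM against 29.0 to 31.7. I3C vehicle T109 was high for Btc, at 0.510 CPM against 0.24 to 0.272, which is 20 counts against 8 to 10. Without T106 the log2 fold change of Ereg with papain on the I3C diet was 0.21 and that of Egfr 0.82, and between the diets with papain they were 1.54 (adjusted p = 0.0250) and -0.64 (adjusted p = 4.24e-05). None of these libraries was left out of the values given above.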

How the results depend on the processing

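Of 1285 recomputed values of the 10 genes, 1262 kept their side of the threshold, 20 lost and 1 gained it, and 2 turned direction. Most of the 1285 belong to results that had not passed in the main fit and so had no call to lose. The 20 losses and 2 turns all fall among the minority that had passed. Of the 1262, 70 changed sign with neither value past the threshold. Leaving out a library left 3 to 4 genes higher with papain on the AhR-poor diet (called or at any fold), 2 to 3 called and 3 to 4 rising on the I3C diet, and 2 lower between the diets with papain. With the fibroblast covariate, 1 gene was called and rose with papain on the AhR-poor diet, and 0 fell between the diets with papain. With the neutrophil covariate, 0 were called and 0 rose on the AhR-poor diet, 0 were called and 1 rose on the I3C diet, and 0 fell between the diets. Both covariates move with the groups, and their standard errors are wider, 0.59 for Areg on the AhR-poor diet against 0.20. Between the diets with papain, 1 gene was called and rose at an adjusted p below 0.05, and 2 were called lower with no minimum fold. The values that turned direction were Adam19 with papain on the AhR-poor diet under the neutrophil covariate (-1.18) and, under the fibroblast covariate between the diets with papain, Egfr (0.20), Erbb3 (0.0263), Adam10 (0.0704), Adam12 (-0.87), Adam17 (0.15), Adam19 (-0.67) and Gab2 (-1.14); the cause was not tested. No paired analysis was possible because no replicate code occurs in more than 1 group. Depth limits Btc, whose largest count in any library was 41, Adam12, and Nrg3 and Erbb4, which were not tested.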
